A study of Mus musculus with 35 samples.

Results

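Hepcidin, its sensing arm and the proteins that carry, store and release iron were followed in mouse liver through 10 genes: Hamp, Id1, Smad7, Tfr2, Trf, Tfrc, Steap4, Fth1, Slc40a1 and Cp. They were chosen for their known roles in iron handling, with no threshold on a measured value, though with earlier results of these data known. Each was read by the probe sets, groups of short probes on the array, that the platform annotation assigns to that gene alone. That gave 17 of the 45037 tested probe sets and 10 of the 17097 genes measured this way. Where a gene had several probe sets, the one with the highest mean over the 35 arrays stands for it below.

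The livers came from adult male C57Bl/6 mice, wild type in all groups, a common inbred laboratory strain. Each mouse breathed styrene vapour or air once, for 6 hours, and was killed on the following morning. Styrene, from which polystyrene is made, is metabolised by liver enzymes. Of the 7 groups, of 5 mice and 5 arrays each, 1 breathed air only, and the others 1, 5, 10, 20, 40 or 120 ppm of styrene. The tissue was whole liver, so fewer cells of a type and less RNA per cell cannot be told apart in any value below.

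Hepcidin, the product of Hamp, is the peptide hormone by which the liver lowers iron in the blood. It binds ferroportin, the iron exporter encoded by Slc40a1, and causes its loss from the cell surface of gut, macrophage and liver cells. Hepatocytes raise Hamp transcription when BMP ligands act on their receptors and SMAD proteins, and when interleukin-6 acts through STAT3. Iron-laden transferrin is sensed through transferrin receptor 2 and the haemochromatosis protein HFE.

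These 2 inputs meet at short elements in the Hamp promoter. The 250 bases before the annotated start are shown for Hamp, with its BMP-responsive core GGCGCC and a STAT-type motif in capitals. They are followed by Hamp2, the near-identical neighbouring copy, and Steap4. Promoter sequence was searched for 6 of the 10 genes, and of these only Hamp and Steap4 had a STAT-type motif there. Trf, Slc40a1, Id1 and Smad7 were not searched. In Hamp2 and Steap4 the capitals mark the STAT-type motif only.
Hamp (chr7:30944030-30944279, minus strand): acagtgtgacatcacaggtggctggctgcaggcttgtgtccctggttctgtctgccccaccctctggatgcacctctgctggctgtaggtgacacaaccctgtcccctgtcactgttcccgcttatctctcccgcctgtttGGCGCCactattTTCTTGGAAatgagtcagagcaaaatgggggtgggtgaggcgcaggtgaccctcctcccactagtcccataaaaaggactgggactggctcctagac
Hamp2 (chr7:30924182-30924431, minus strand): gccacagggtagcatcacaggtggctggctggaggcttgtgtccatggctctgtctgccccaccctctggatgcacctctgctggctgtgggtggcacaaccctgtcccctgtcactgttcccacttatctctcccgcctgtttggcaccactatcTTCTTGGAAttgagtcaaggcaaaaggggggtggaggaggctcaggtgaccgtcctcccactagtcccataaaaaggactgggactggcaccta
Steap4 (chr5:7960222-7960471, plus strand): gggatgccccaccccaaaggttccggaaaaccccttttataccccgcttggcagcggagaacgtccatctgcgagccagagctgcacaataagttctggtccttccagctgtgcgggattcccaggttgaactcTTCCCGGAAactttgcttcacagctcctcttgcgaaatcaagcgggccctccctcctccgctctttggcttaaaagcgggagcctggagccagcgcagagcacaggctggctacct

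The sequences and coordinates are RefSeq's on GRCm38.p6, printed 5′ to 3′ in the direction of transcription. In Hamp, GGCGCC lies at -109 to -104 and TTCTTGGAA at -97 to -89, counted back from the start. Hamp2 holds the same TTCTTGGAA at -94 to -86. Its bases in place of the BMP-responsive core differ by G4A, counted from 1 at the first base of the core. The 2 windows were identical at 227 of 247 aligned bases (91.9%). Steap4 holds TTCCCGGAA at -116 to -108. GGCGCC also lay at -89 to -84 of a Tfrc start.

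The motifs searched on both strands of these windows were GGCGCC, TTCNNNGAA and the E-box CACGTG, and they lie in 9.59%, 7.02% and 6.02% of all 32851 RefSeq windows. No CACGTG was found in the windows of the 6 genes searched. CAGTGN, the loop of an iron-responsive element, was searched on the sense strand of the 50 bases after the start and lies in 7.08% of windows. Of the 6 genes, a match was found at 1 Tfr2 start, as CAGTGG at positions 38 to 43. The rest of each transcript was not searched, so the lack of a match does not mean that a transcript lacks the element. Nor does a match of these letters alone show that one is present. These matches are letters in a window, not measured binding.

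The 2 genes of iron export were those that passed at the highest dose. Slc40a1, the ferroportin gene, and Cp, which encodes the secreted ferroxidase ceruloplasmin that loads exported iron onto transferrin, both rose at 120 ppm. Slc40a1 rose 1.54-fold and Cp 1.63-fold against air. Slc40a1 rose at 40 ppm as well. None of the other 8 genes passed the test at 120 ppm by its main probe set, Hamp among them.

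The values are log2, so a difference of 1 is a doubling. Slc40a1 had 9.97, 9.93, 10.06, 10.28 and 10.30 at 120 ppm, against 9.55, 9.12, 9.25, 9.39 and 10.11 in air. At 40 ppm the 5 values were 10.00, 9.96, 9.97, 10.23 and 10.35. Air replicate 5, at 10.11, was the only air mouse inside the range of the 40 and 120 ppm groups.

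The mean of Slc40a1 was lowest at 5 ppm. In dose order, air mice averaged 9.49 ± 0.38, 1 ppm mice 9.39 ± 0.29, 5 ppm mice 9.25 ± 0.48 and 10 ppm mice 9.55 ± 0.26 (SD, n = 5 each). The 20 ppm mice averaged 9.83 ± 0.27, the 40 ppm mice 10.10 ± 0.18 and the 120 ppm mice 10.11 ± 0.17. The step from 20 to 40 ppm (change 0.27, adjusted p = 0.541) did not pass in limma. Nor did the step from 40 to 120 ppm (0.01, adjusted p = 1).

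Each difference was tested with limma, a linear model fitted to all probe sets that shares one spread over the 7 groups. The Benjamini-Hochberg adjustment ran over all 45037 probe sets, and an adjusted p under 0.05 passed. Slc40a1 changed by 0.62 ± 0.18 at 120 ppm (SE; 95% interval 0.25 to 1.00, adjusted p = 0.0166) and by 0.61 at 40 ppm (adjusted p = 0.0221). Its second probe set changed by 0.54 (adjusted p = 0.0327) and 0.51 (adjusted p = 0.0531). The slope on log2(ppm + 1) over all 35 mice was 0.12 (95% interval 0.07 to 0.17, adjusted p = 0.000321). At 120 ppm the call was lost without air replicate 2 (adjusted p = 0.055) or 3 (adjusted p = 0.0503). At 40 ppm it was lost without either of those or without 40 ppm replicate 5 (adjusted p from 0.0638 to 0.0696).

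Cp had 11.62, 11.65, 11.61, 11.70 and 11.60 at 120 ppm, against 11.03, 10.51, 10.71, 10.91 and 11.48 in air. Every mouse at 120 ppm lay above every air mouse. The change was 0.71 ± 0.23 (SE; 95% interval 0.25 to 1.17, adjusted p = 0.0267). At 40 ppm it was 0.64, with an adjusted p of 0.052. Without air replicate 5, the highest air mouse, the 40 ppm change passed (adjusted p = 0.0232).

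The spread of Cp also differed by dose. From air upwards through the 6 styrene doses the SD was 0.37, 0.44, 0.66, 0.46, 0.21, 0.13 and 0.04. The lowest value, 9.50, belonged to a 5 ppm mouse. No test of the difference in spread was made. The slope was 0.11 (adjusted p = 0.00475). The second, dimmer Cp probe set changed by 0.56 at 120 ppm without passing (adjusted p = 0.167), and its slope was 0.04 (adjusted p = 0.342). The main probe set lost its call at 120 ppm without 120 ppm replicate 4 (adjusted p = 0.0505), air replicate 2 (0.0799) or air replicate 3 (0.0682), and when arrays were centred on their medians (0.0562).

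**Figure D1:**
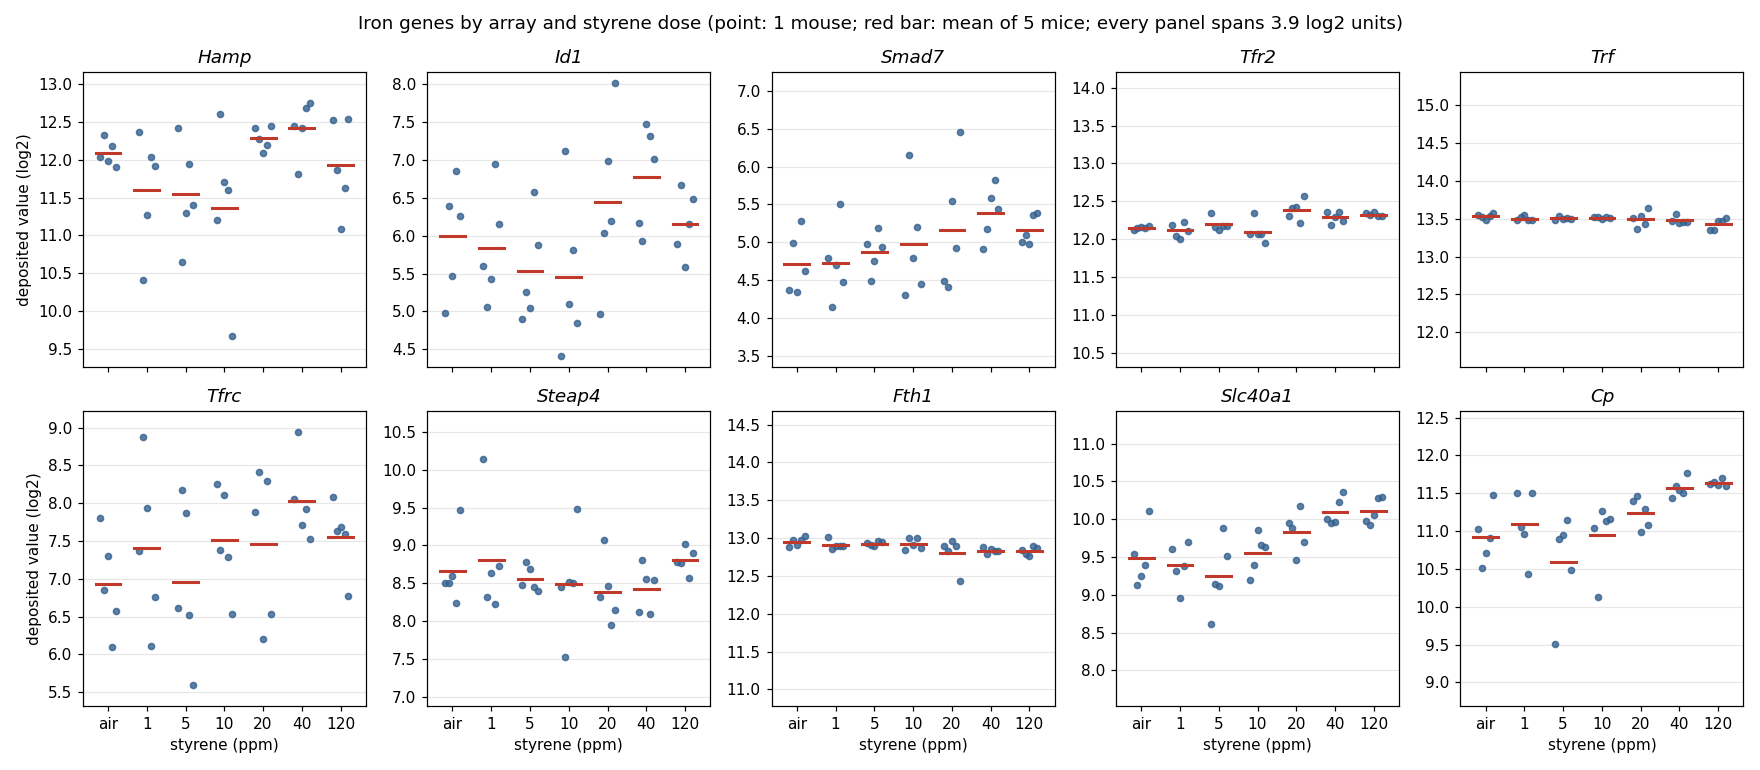
Deposited log2 values of the 10 iron genes in each of 35 mice (points) by styrene concentration in ppm, air at the left, with the mean of 5 mice as a red bar; every panel has the same height in log2 units. Slc40a1 and Cp lie higher at 40 and 120 ppm than in air, Hamp, Id1 and Tfrc scatter widely within a dose, and Trf, Fth1 and Tfr2 lie in narrow bands.

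Hamp itself showed no change that passed at any dose. Its values at 120 ppm were 12.52, 11.86, 11.08, 11.63 and 12.54, against 12.04, 12.32, 11.98, 12.18 and 11.90 in air, and the groups overlapped. The change at 120 ppm was -0.16 (95% interval -0.91 to 0.59, adjusted p = 0.793), an interval that holds rises and falls alike. At 40 ppm it was 0.34 (adjusted p = 0.578).

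The SD of Hamp between mice of one dose ran from 0.15 to 1.07, and no test of a difference in spread was made. Air mice averaged 12.09 ± 0.17, 1 ppm mice 11.60 ± 0.77, 5 ppm mice 11.54 ± 0.67 and 10 ppm mice 11.36 ± 1.07 (SD, n = 5 each). The 20 ppm mice averaged 12.29 ± 0.15, the 40 ppm mice 12.42 ± 0.37 and the 120 ppm mice 11.92 ± 0.62. Over all mice Hamp ranged 8.47-fold, and its pooled SD within groups, 0.629, was larger than that of 99.4% of genes. The median gene had 0.187.

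The largest step of Hamp between neighbouring doses was between 20 and 10 ppm. At 20 ppm the 5 values were 12.43, 12.27, 12.09, 12.20 and 12.44, against 11.21, 12.60, 11.70, 11.60 and 9.67 at 10 ppm. One 10 ppm mouse lay above every 20 ppm mouse and the other 4 lay below them. The difference was 0.93 (95% interval 0.18 to 1.68, adjusted p = 0.334). In the F test over all 7 groups Hamp had an adjusted p of 0.149. It passed that test when arrays were weighted by quality (0.0287) or without replicate 2 of every group (0.0439). The second Hamp probe set changed by -0.15 at 120 ppm (adjusted p = 0.828).

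Hamp2 had a probe set of its own, but probes for such close copies may read both transcripts, so the pair cannot be treated as independent readings. Hamp2 averaged 9.93 ± 0.56 at 120 ppm, against 9.99 ± 0.42 in air (SD, n = 5 each). Like Hamp it was lowest at 10 ppm, at 9.34 ± 1.10, and had its narrowest spread at 20 ppm, with 10.64 ± 0.11. Unlike Hamp, which averaged below air at 1 and 5 ppm, Hamp2 averaged above air there, at 10.04 ± 0.93 and 10.35 ± 0.71.

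Id1, an inhibitor of basic helix-loop-helix factors, and Smad7, an inhibitory SMAD, are both direct targets of BMP-SMAD signalling. Id1 had 5.90, 6.67, 5.58, 6.16 and 6.49 at 120 ppm, against 4.98, 6.40, 5.47, 6.85 and 6.27 in air, with full overlap (change 0.17, adjusted p = 0.837). At 40 ppm Id1 averaged 6.78 ± 0.69, against 5.99 ± 0.75 in air, a difference of 0.79 that did not pass (95% interval -0.18 to 1.75, adjusted p = 0.274).

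Smad7 had 5.01, 5.09, 4.98, 5.35 and 5.39 at 120 ppm, against 4.37, 4.99, 4.34, 5.28 and 4.61 in air. At 40 ppm the values were 4.92, 5.18, 5.59, 5.82 and 5.44. The changes were 0.45 at 120 ppm (adjusted p = 0.313) and 0.67 at 40 ppm (adjusted p = 0.138), and both groups overlapped air. Its slope over all doses was 0.09 and passed (95% interval 0.02 to 0.16, adjusted p = 0.0416). That call was lost without replicate 1, 3 or 5 of every group (adjusted p from 0.0529 to 0.156), with arrays centred on their medians (0.0796), after a second quantile normalization (0.159) and with the slope taken on ppm itself (0.216).

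Tfr2, the hepatocyte's transferrin sensor, moved little but within a very narrow spread. It had 12.34, 12.31, 12.36, 12.30 and 12.31 at 120 ppm, against 12.12, 12.15, 12.15, 12.14 and 12.18 in air. At 20 ppm the values were 12.30, 12.41, 12.42, 12.21 and 12.57, and at 40 ppm 12.36, 12.19, 12.29, 12.35 and 12.24. At each of these 3 doses every mouse lay above every air mouse. The SD of Tfr2 was 0.02 in air and 0.15 at 10 ppm.

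The Tfr2 change was 0.18 ± 0.07 at 120 ppm (SE, adjusted p = 0.0739), 0.14 at 40 ppm (adjusted p = 0.189) and 0.24 at 20 ppm (adjusted p = 0.102), so no single dose passed by the main probe set. The F test (adjusted p = 0.0096) and the slope of 0.03 (adjusted p = 0.00663) did pass. With arrays centred on their medians neither did (adjusted p = 0.0523 for the F test, 0.112 for the slope). The F test was also lost without replicate 3 (0.152) or 5 (0.11) of every group. The other Tfr2 probe set changed by 0.29 at 120 ppm (adjusted p = 0.0187) and by 0.25 at 40 ppm (adjusted p = 0.0463). The main one has the suffix given to probe sets whose probes can match other transcripts.

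Tfr2 had its largest step between neighbouring doses where Hamp had, between 20 and 10 ppm. It averaged 12.38 ± 0.13 at 20 ppm, against 12.10 ± 0.15 at 10 ppm (SD, n = 5 each). The difference was 0.28 (95% interval 0.14 to 0.43, adjusted p = 0.0631). Without 10 ppm replicate 2, which had 12.35 where the others had 11.95 to 12.07, it passed (adjusted p = 0.00821).

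None of the 3 uptake genes, Trf, Tfrc and Steap4, passed at any dose. Trf encodes transferrin, the iron carrier of plasma that the liver secretes. Its 5 values were 13.35, 13.35, 13.47, 13.47 and 13.51 at 120 ppm, against 13.54, 13.53, 13.49, 13.54 and 13.57 in air. The change was -0.10 (95% interval -0.22 to 0.01, adjusted p = 0.177). Trf had one of the smallest spreads on the array, with a pooled SD of 0.0554, larger than that of only 0.13% of genes. With arrays centred on their medians the fall at 120 ppm was -0.20 and passed (adjusted p = 0.0118).

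Tfrc encodes transferrin receptor 1, which takes in iron-laden transferrin and whose transcript is stabilised by iron regulatory proteins when iron is scarce. It had 8.08, 7.63, 7.69, 7.59 and 6.77 at 120 ppm, against 7.81, 6.85, 7.31, 6.10 and 6.57 in air. At 40 ppm the values were 8.06, 8.94, 7.71, 7.92 and 7.53, with 1 air mouse inside their range. The change was 1.10 at 40 ppm (95% interval 0.13 to 2.08, adjusted p = 0.117) and 0.62 at 120 ppm (adjusted p = 0.372). The other Tfrc probe sets were dim, with means of 3.78 and 3.08 over all arrays, and changed by 0.15 and 0.12 at 120 ppm (adjusted p = 0.574 and 0.648).

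Tfrc was one of the most variable genes, with a pooled SD of 0.823, and some of that spread ran with the order of the sample numbers in the titles. Within groups Tfrc changed by -0.31 for each place in that order (adjusted p = 0.0133, limma). Id1 changed by 0.27 (adjusted p = 0.0574) and Slc40a1 by 0.10 (adjusted p = 0.0724). With the place as a covariate the rise of Tfrc at 40 ppm passed (adjusted p = 0.0488). The title numbers also run with dose, and what the order stands for is not given in the sources used here, so order and dose cannot be told apart between groups.

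Steap4, a metalloreductase that reduces iron for import and is induced by inflammatory cytokines, had 8.78, 8.76, 9.01, 8.57 and 8.89 at 120 ppm, against 8.50, 8.50, 8.60, 8.24 and 9.47 in air. The change was 0.14 (95% interval -0.43 to 0.72, adjusted p = 0.759). The largest Steap4 value of all, 10.14, was in a 1 ppm mouse.

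Fth1, the heavy chain of the iron store ferritin, lay slightly lower at the upper doses. It had 12.85, 12.79, 12.76, 12.89 and 12.87 at 120 ppm, against 12.88, 12.97, 12.91, 12.98 and 13.02 in air. At 40 ppm it had 12.88, 12.79, 12.85, 12.83 and 12.83, every mouse below every air mouse, though the closest pair differed only in the third decimal. The changes were -0.12 at both doses (adjusted p = 0.232 at 120 ppm and 0.272 at 40 ppm). They did not pass, and neither did the slope of -0.02 (adjusted p = 0.0621). With arrays centred on their medians the change at 120 ppm was -0.21 (adjusted p = 0.041).

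Counted together, 2 of the 10 genes rose and 0 fell at 120 ppm by their main probe sets, where 11.2% of all genes rose and 7.99% fell. With centred arrays 1 of the 10 rose (Slc40a1) and 2 fell (Trf and Fth1) at 120 ppm. Centring shifted the median change of all genes by -0.095 there. The shares of all genes passing after centring or a second quantile normalization were not counted, here or for the slopes and lists below. At 40 ppm 1 of 10 rose and 0 fell, against 8.74% and 6.24% of all genes. At 20 ppm 0 of 10 passed, against 1.46%, with 2 of the 10 under 0.05 before adjustment (limma). At 1, 5 and 10 ppm none passed in limma, where 0%, 0.0526% and 0% of all genes did, and none of the 10 had an unadjusted p under 0.05 there. None passed between 20 and 10 ppm, 40 and 20 ppm or 120 and 40 ppm (0.474%, 0.339% and 0.0409% of all genes). Unadjusted, 3, 0 and 0 of the 10 were under 0.05 in those comparisons. The shares of all genes with an unadjusted p under 0.05 were not counted, so nothing is read from the unadjusted counts.

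The slope passed for 4 genes, Slc40a1, Cp, Tfr2 and Smad7, all higher with dose, where 20.1% of all genes had a slope that passed upwards and 12.9% downwards. With centred arrays 2 passed upwards, Slc40a1 and Cp, and 2 downwards, Trf (adjusted p = 0.00321) and Fth1 (0.00379). After a second quantile normalization 3 passed upwards, without Smad7, and Fth1 downwards (0.0202). The F test passed for Slc40a1, Cp and Tfr2, where 21.5% did. The groups did not overlap with air for 2 genes at 120 ppm (Cp and Tfr2), 2 at 40 ppm (Tfr2 and Fth1) and 1 at 20 ppm (Tfr2), against 14.4%, 13.6% and 2.49% of all genes. The counts are small, and nothing about the 10 genes as a set is read from them. The median change of the 10 was 0.17 at 120 ppm and 0.48 at 40 ppm, against 0.04 and 0.02 over all genes.

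**Figure D2:**
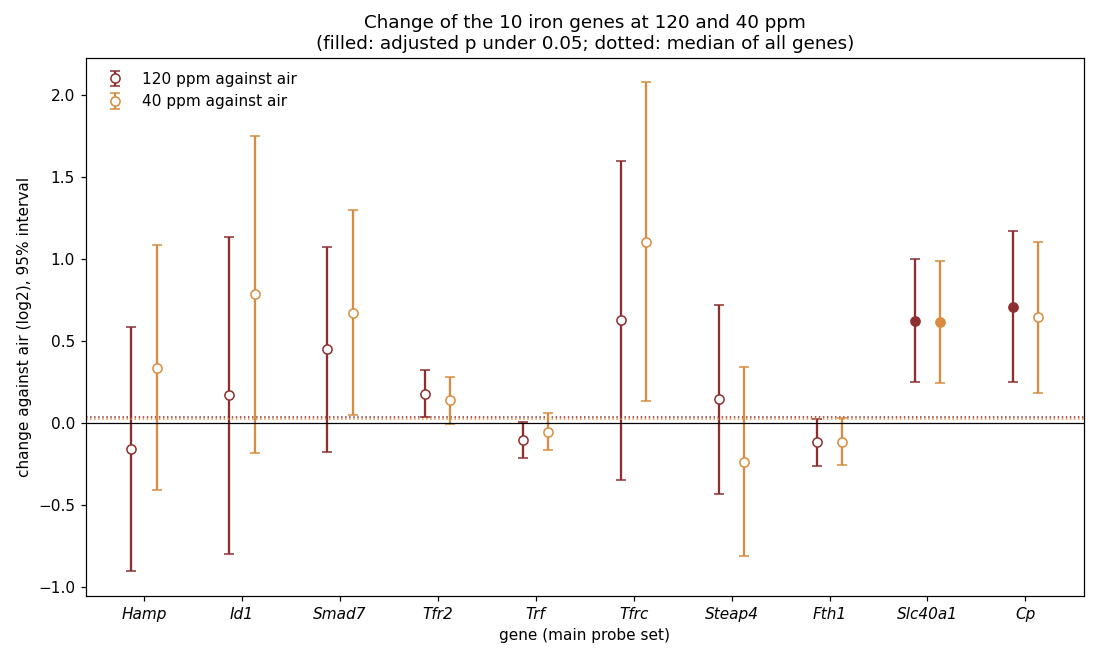
Change against air on the log2 scale, with its 95% interval, for each of the 10 iron genes at 120 ppm (dark red) and 40 ppm (orange); filled points had an adjusted p under 0.05, and dotted lines are the medians of all genes. Slc40a1 at both doses and Cp at 120 ppm are filled, and the interval of Hamp spans 0 at both.

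Across mice of the same dose some of the 10 genes varied together and others did not. Each value was taken as its difference from the mean of its group, which removes the dose. Id1 and Smad7, both BMP-SMAD targets, had a Pearson r of 0.88 and a Spearman rho of 0.85 over the 35 mice. Of the 17096 other genes none had a higher r with either. Without the 2 mice farthest from the median of Id1, r was 0.83.

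Hamp went with the same arm more loosely. Its within-group r was 0.60 with Tfr2 (rho 0.50), 0.51 with Smad7 (rho 0.48) and 0.44 with Id1 (rho 0.43). Without the 2 mice farthest from the median of Hamp these were 0.42, 0.37 and 0.31, so part of each rests on 2 mice. Tfr2 went with Smad7 at 0.64 (rho 0.49) and with Id1 at 0.55 (rho 0.47). Without the 2 mice farthest from the median of Tfr2 these were 0.39 and 0.31. Tfrc ran opposite to both targets, with -0.64 for Id1 and -0.60 for Smad7.

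The export pair went together as well. Slc40a1 and Cp had a within-group r of 0.68 (rho 0.61), and 0.60 without the 2 mice farthest from the median of Slc40a1. Cp and Steap4 had 0.55, and Tfr2 and Cp -0.55. Among the 17096 other genes by within-group r, Cp ranked 125 for Slc40a1, and Slc40a1 ranked 1307 for Cp. With the place in the title order removed too, r was 0.87 for Id1 and Smad7, 0.60 for Hamp and Tfr2, -0.48 for Tfrc and Id1 and 0.67 for Slc40a1 and Cp. In all, 45 pairs were compared, 20 of them with r above 0. The values of a mouse share 1 array, so these are descriptions and no p is given.

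**Figure D3:**
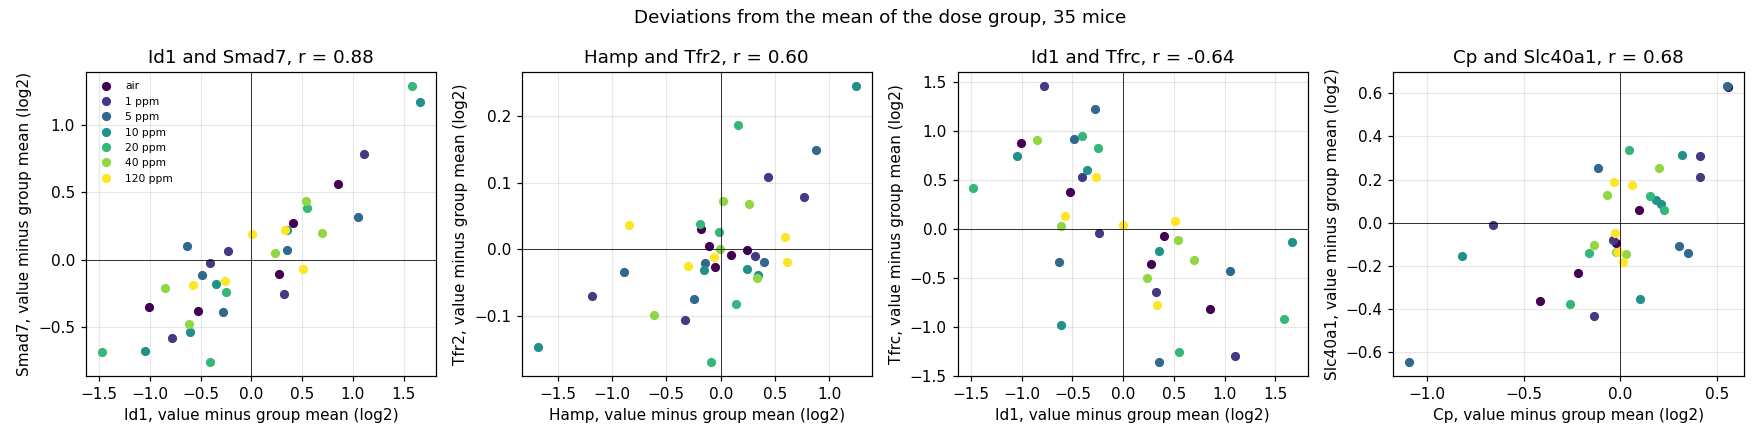
Each mouse's value minus the mean of its dose group (log2) for 4 pairs of genes, coloured by dose from air (dark) to 120 ppm (yellow), with 35 mice per panel. Id1 and Smad7 fall along a line (r = 0.88), Hamp and Tfr2 and Cp and Slc40a1 are looser, and Id1 and Tfrc run in opposite directions.

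The genes whose pattern over all 35 arrays was most like each of the 10, by Pearson r, were as follows. For Hamp they were Eml3 (0.76), Hamp2 (0.75) and Plbd2 (0.74), and for Tfr2 Lcat (0.89), Slc6a9 (0.87) and Rapgef1 (0.86). Lcat encodes the secreted enzyme that esterifies plasma cholesterol. For Slc40a1 they were Kif1b (0.91), Erlec1 (0.89) and Ttpa (0.88), the last of which encodes the liver's vitamin E transfer protein. Cp was most like the clotting factor gene F9 (0.97), Amy1 (0.96) and Iqgap2 (0.94).

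Fth1 was most like Apoa2 (0.88), Tapbp (0.87) and Serpinc1 (0.86), of which Apoa2 and Serpinc1 encode plasma proteins made by hepatocytes. Trf was most like Cyp2c23 (0.82), Serpina6 (0.79) and Gfm2 (0.75). Tfrc was most like Acsl3 (0.85), Dnajb4 (0.83) and Kdm6a (0.81). Besides each other, Id1 had Triobp (0.83) and Mnt (0.81), and Smad7 had Fbxl8 (0.81) and Ccl27a (0.79). Steap4 had the serum amyloid A family gene Saa4 (0.80), Ptpn3 (0.79) and the fibrinogen gene Fga (0.78). These were the highest of 17096 coefficients for each gene, and the arrays share the 7 dose groups.

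The other genes of the BMP and hepcidin pathway were split in direction. Of 23 measured, 4 rose and 2 fell at 120 ppm, where 11.2% of all genes rose and 7.99% fell. The risers were receptors and a signal carrier: Bmpr2 (0.87 ± 0.28, SE, adjusted p = 0.028) and Acvr2b (0.83 ± 0.22, adjusted p = 0.00693), type 2 receptors, Bmpr1a (0.41, adjusted p = 0.0451), a type 1 receptor, and Smad5 (0.45, adjusted p = 0.0151). The genes that fell were Fkbp1a (-0.44, adjusted p = 0.00245), which binds and restrains type 1 receptors, and Hfe (-0.24, adjusted p = 0.0406). Hfe had a mean of 9.10 ± 0.06 at 120 ppm, against 9.34 ± 0.08 in air (SD, n = 5 each). Bmpr1a and Acvr2b were dim, with means of 3.89 and 4.14 over all arrays, against 6.14 for Smad5 and 7.78 for Bmpr2.

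The ligands and other regulators of hepcidin did not pass. Bmp6, the ligand that iron induces in the liver's endothelium, changed by 0.35 (adjusted p = 0.13) and Bmp2 by -0.04 (adjusted p = 0.876). Tmprss6, the protease that cleaves haemojuvelin and restrains hepcidin, changed by -0.27 (adjusted p = 0.0526), and Hjv, haemojuvelin itself, by 0.19 (adjusted p = 0.34). Other SMAD targets, Id2 (-0.17), Id3 (-0.21) and Smad6 (0.05), did not pass either (adjusted p = 0.774, 0.773 and 0.879). Atoh8 and Fam132b were not analysed here.

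Several of these calls depended on 1 mouse or on the scaling of the arrays. Bmpr1a, Bmpr2 and Hfe were each lost without any of several single mice (adjusted p from 0.0523 to 0.12, from 0.0532 to 0.0897 and from 0.0503 to 0.0952), and Smad5 without air replicate 3 (0.0527). Acvr2b and Fkbp1a kept theirs without any 1 mouse. With arrays centred on their medians, which lowered the median change of all genes by 0.095 at 120 ppm, 1 of these 23 genes rose and 3 fell: Bmpr1a (adjusted p = 0.131), Bmpr2 (0.0511) and Smad5 (0.0511) were lost, and the fall of Tmprss6 passed (-0.37, adjusted p = 0.00943). As deposited, 2 of the 23 rose and 1 fell at 40 ppm, where 8.74% of all genes rose and 6.24% fell. None of the 23 passed at 20 ppm, against 1.46% of all genes.

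In the interleukin-6 arm 1 of 10 genes rose and none fell at 120 ppm, against 11.2% and 7.99% of all genes. It was Il6ra, the receptor's ligand-binding chain, with 0.58 ± 0.18 (SE, adjusted p = 0.0206), and it did not pass with centred arrays (adjusted p = 0.0517) or without 120 ppm replicate 1 or air replicate 1 or 3 (0.0509 to 0.0726). Stat3 changed by 0.02 (adjusted p = 0.956). Its feedback target Socs3 changed by 0.67 (adjusted p = 0.175), and passed without air replicate 5 (1.03, adjusted p = 0.0257).

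Of 19 other uptake and export genes, 5 rose and 2 fell at 120 ppm, against 11.2% and 7.99% of all genes. Lcn2, the siderophore-binding acute phase protein, rose by 4.74 ± 0.61 (SE, adjusted p = 7.12e-06). Flvcr2, a transporter of the FLVCR family, rose by 1.05 ± 0.17 (adjusted p = 0.000124), with 5.10 ± 0.24 at 120 ppm and 4.05 ± 0.17 in air (SD, n = 5 each). Steap2, a metalloreductase, rose by 0.74 (adjusted p = 0.0317), and haptoglobin, Hp, which binds free haemoglobin, by 0.33 (adjusted p = 0.00104). Lrp1, the receptor that clears haem bound to haemopexin, rose by 0.29 (adjusted p = 0.0426). Hpx, haemopexin, changed by 0.09 (adjusted p = 0.374).

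The 2 that fell were Cybrd1, a ferric reductase (-0.41, adjusted p = 0.0312), and Snx3, a sorting protein that recycles transferrin receptor 1 (-0.36, adjusted p = 0.00341). Snx3 was also lower at 20 ppm (-0.38, adjusted p = 0.0196) and 40 ppm (-0.34, adjusted p = 0.00552). Flvcr2, Steap2 and Cybrd1 were dim, with means of 4.38, 4.18 and 3.55 over all arrays. With centred arrays 3 of these 19 rose and 2 fell at 120 ppm, and Steap2 (adjusted p = 0.0628) and Lrp1 (0.18) were the ones no longer called. Those and Cybrd1 were also lost without any of several single mice (adjusted p from 0.0534 to 0.116 for Steap2, from 0.0603 to 0.106 for Lrp1 and from 0.0506 to 0.0702 for Cybrd1).

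Among genes of iron storage and its chaperones, some rose and some fell. Ncoa4, the receptor that sends ferritin for breakdown, rose by 0.56 ± 0.15 at 120 ppm (SE, adjusted p = 0.0089) and by 0.52 at 40 ppm (adjusted p = 0.0178). Ftl1, the light chain of ferritin, fell by 0.25 at 120 ppm (adjusted p = 0.0162) and by 0.22 at 40 ppm (adjusted p = 0.0405). Of the poly(rC)-binding proteins that deliver iron to ferritin, Pcbp1 fell by 0.46 (adjusted p = 0.00221) and Pcbp2 rose by 0.33 (adjusted p = 0.0103). Hmox1, which degrades haem, changed by -0.45 (adjusted p = 0.217). In this list 2 of 10 rose and 2 fell at 120 ppm, against 11.2% and 7.99% of all genes. With centred arrays 1 rose and 2 fell, Pcbp2 being the one lost (adjusted p = 0.0707).

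None of the 12 genes of mitochondrial iron handling and iron-sulfur assembly passed at 120 ppm in limma, and none had an unadjusted p under 0.05. Of all genes 11.2% rose and 7.99% fell there. With centred arrays 2 of the 12 were lower, with no share of all genes counted. At 40 ppm 2 of the 12 were lower and 0 higher, against 6.24% and 8.74% of all genes. They were Slc25a37, the mitochondrial iron importer mitoferrin-1 (-0.31, adjusted p = 0.0114), and Bola3 (-0.20, adjusted p = 0.0435). At 20 ppm Slc25a37 was lower as well (-0.39, adjusted p = 0.0184), where 1.46% of all genes passed.

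The median change of each list at 120 ppm was small. It was 0.05 for BMP and hepcidin signalling, 0.16 for the interleukin-6 arm, 0.19 for uptake and export, 0.02 for storage and -0.02 for mitochondrial iron, against 0.04 over all genes. With centred arrays the same medians were -0.05, 0.06, 0.09, -0.07 and -0.12.

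**Figure D4:**
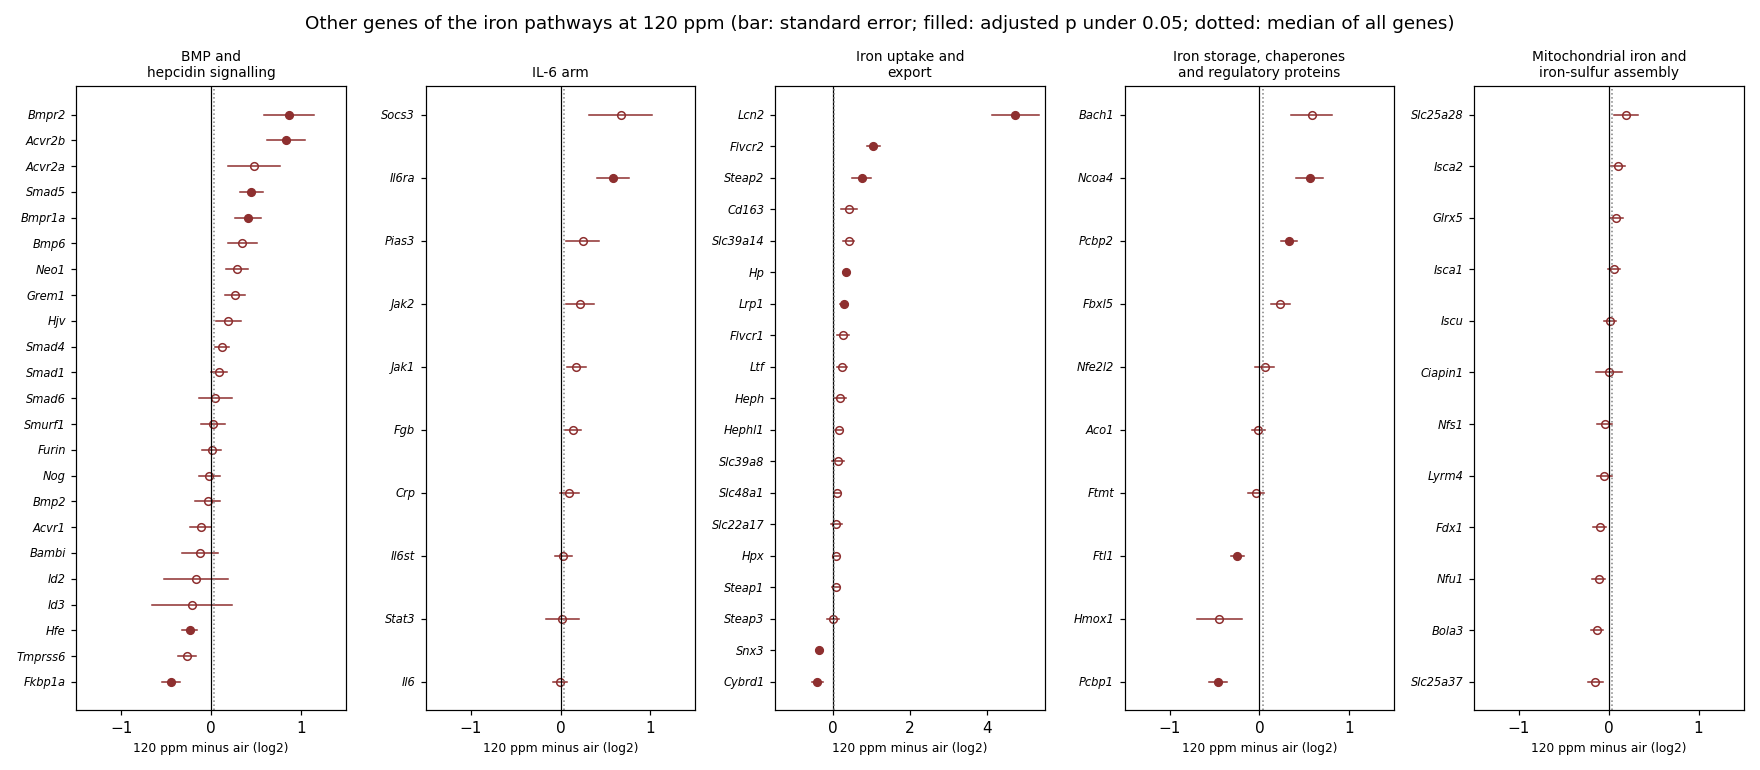
Change at 120 ppm against air (log2, bar for the standard error) of the measured genes in 5 iron pathway lists; filled points had an adjusted p under 0.05 and the dotted line is the median of all genes. The uptake and export panel has a wider axis because Lcn2 rose by 4.74.

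Features of the arrays and of other cells moved with dose too. Array medians lay between 3.570 and 3.628 at 120 ppm and between 3.476 and 3.526 in air, and the gap between 3′ and 5′ actin probe sets (3′ minus 5′), a reading of RNA integrity, between 0.646 and 0.787 at 120 ppm and between 0.436 and 0.552 in air. Over the 35 arrays that gap had an r of 0.64 with Slc40a1, 0.64 with Tfr2, 0.60 with Cp and -0.59 with Fth1. Within groups these were 0.18, 0.21, 0.29 and -0.32. Hepatocyte markers had mean levels between 13.21 and 13.38 at 120 ppm and between 13.27 and 13.38 in air. Of these 7 markers 1 rose and 0 fell at 120 ppm, against 11.2% and 7.99% of all genes.

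Kupffer cells, the liver macrophages, also carry ferroportin, and 6 of their 11 markers were lower at 120 ppm, against 7.99% of all genes, led by Clec4f (-0.74, adjusted p = 0.000426). The mean level of the 11 was 6.49 to 7.12 at 120 ppm, against 6.97 to 7.98 in air. Slc40a1 was higher at 120 ppm, and its r with that mean was -0.15 over all arrays and 0.31 within groups. Of 6 erythroid markers measured, 1 was higher and 1 lower at 120 ppm, against 11.2% and 7.99% of all genes. Klf1 was the higher (0.97, adjusted p = 0.00295) and Alas2 the lower (-0.62, adjusted p = 0.00563). The part of these features in the results above was not tested.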

How the data were processed

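Liver RNA of 35 mice, 1 array each, was measured on an Affymetrix 3′ expression array. The deposited table holds log2 values per probe set; RMA and Partek are the tools listed in the submitters' processing notes, with no versions. The logarithm's base is not given in the sources used here and was read as 2 from the range of values, 1.74 to 14.23. Scanner values were not used here, which leaves unknown how many probe sets exceeded background. Dim probe sets may understate a change, and the number of arrays limits the precision. No further normalization was added.

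The 104 control probe sets were left out, leaving 45037. The platform annotation gave 1 gene symbol for 28898 probe sets, several for 551 and none for 15588. Symbols were looked up in a RefSeq gene table of GRCm38.p6, which changed 0 of them.

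limma 3.58.1 in R 4.3.3 (data.table version 1.17.8) fitted a mean per group to all arrays, with 28 residual and 5.41 prior degrees of freedom. It was also tested on simulated data. With 200 probe sets changed at 120 ppm, it recovered 47% of changes of 0.5 and 94% of changes of 1 against air. Groups were compared with air and with the neighbouring dose, by an F test and by a slope on log2(ppm + 1). The labels call the 5 samples of a group biological replicates.

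The genes named were the 10 iron genes, up to 4 passing genes each way from each of 13 pathway and cell marker lists (149 genes, 130 measured, 1 through a synonym), 17 regulators by role where measured, and the 3 genes most like each of the 10. From the marker lists only the Kupffer, erythroid and hepatocyte results are given. Lrp1, Slc25a37 and Bola3 fall outside this rule and were named after their values were seen. The genes and lists were chosen with earlier results of these data known. The alternatives were array centring, a second quantile normalization, a filter on dim probe sets, an intensity-dependent prior, array weights, the compared groups alone, the mean of a gene's probe sets, a replicate block, the place of the title number as a covariate, other dose scales for the slope and each replicate left out. Figures were drawn with matplotlib.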

Additional observations from a re-analysis of the deposited data

Results flagged for a closer look

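Among 70 sets of 5 mice, 10 genes at 7 doses, 6 held a mouse that stood apart from the other 4 by Dixon's criterion, and chance alone gives about 1 in 20. Tfr2 was highest in 5 ppm replicate 1, at 12.34, where the next mouse had 12.17. Trf was highest in 40 ppm replicate 2, at 13.57, against 13.48 for the next. Fth1 was highest in 1 ppm replicate 1, at 13.02, against 12.89, and lowest in 20 ppm replicate 5, at 12.44, against 12.83. Cp was lowest in 10 ppm replicate 2, at 10.13, where the next mouse had 11.05. Steap4 was highest in 1 ppm replicate 1, at 10.14, against 8.73. The 10 ppm mouse with the low Cp was also the one with the highest Hamp, 12.60, and Tfr2, 12.35, of its group.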

How the results depend on the processing

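The rises of Slc40a1 and Cp kept their direction under every alternative run, and the text gives the settings under which their calls were lost. Of the 10 genes at 120 ppm 2 were called as reported, and from 0 to 2 when single mice were left out, with 0 without air replicate 2 or 3. At 40 ppm 1 was called as reported (0 without 40 ppm replicate 5, up to 2 without air replicate 5). There 2 were called among brighter probe sets only, 2 with an intensity-dependent prior, 2 with array weights, 4 with the compared groups alone (Cp, Tfrc and Smad7 added) and 3 with the place covariate (Cp and Tfrc added). In each of the first 3 the gene added was Cp. At 20 ppm Tfr2 was called with an intensity-dependent prior, 1 in place of 0, and between 20 and 10 ppm, also 1 in place of 0, among brighter probe sets, with that prior, with array weights and without 10 ppm replicate 2. Tfr2 also passed at 120 ppm with the prior (adjusted p = 0.0366), with weights (0.0379) and as the mean of its probe sets (0.0322). Cp lost its F test as such a mean (0.0728). The downward slope of Trf passed with centred arrays (0.00321) and with the prior (0.0408). That of Fth1 passed with centred arrays (0.00379), after a second quantile normalization (0.0202), with the prior (0.0289) and with array weights (0.0408). Tmprss6 passed at 120 ppm under 5 settings and without air replicate 1 or 5 (adjusted p from 0.00943 to 0.0482), and Bmp6 (0.0294) and Hmox1 (0.0265) with the compared groups alone. After a second quantile normalization Bmpr1a (0.209), Hfe (0.0557) and Steap2 (0.0905) were lost, and Steap2 also with the compared groups alone (0.0514).

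Some changes that did not pass changed sign. At 120 ppm, with single mice left out, Hamp ranged from -0.31 to 0.050, Id1 from -0.086 to 0.38, Bmp2 from -0.14 to 0.046, Id2 from -0.38 to 0.088, Smad6 from -0.050 to 0.12 and Stat3 from -0.049 to 0.19. With centred arrays Hpx was at -0.0087, Smad6 at -0.046 and Stat3 at -0.076. Smad6 was at -0.11 after a second quantile normalization and Stat3 at -0.0038 with array weights. The Steap4 slope was 0.0013 on ppm itself and from -0.034 to 0.0090 with replicates left out.

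Whether the replicate numbers pair mice across groups was not tested. Across groups, deviations correlated above 0.1 in 31 of 105 same-numbered pairs and in 94 of 420 other-numbered pairs. The median correlations were 0.027 and -0.011. With the replicate number as a block, 2 genes were called at 40 ppm, Tfrc joining Slc40a1 (adjusted p = 0.0461), Bmpr1a was lost at 120 ppm (adjusted p = 0.0514), and 7 probe sets differed between 120 and 40 ppm, against 11 without the block. Among the other results of the 10 genes and of the pathway genes named at 120 ppm no call changed with the block. Calls of pathway genes at 20 and 40 ppm and of cell markers were not run with it.

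Counts over all probe sets moved more. The 2 probe sets called at 1 ppm became 1 with the prior, 10 with weights, 0 with the compared groups alone and 0 to 6 with single mice left out. The 69 at 5 ppm became 217 with weights, 1 with the compared groups alone and 22 to 120 with mice left out. The 0 at 10 ppm became 4 after quantile normalization, 6 among brighter probe sets, 7 with weights and 0 to 2 with mice left out. The 466 at 20 ppm became 1037 with weights, 0 with the compared groups alone and 37 to 1109 with mice left out. Among brighter probe sets the 8727 at 120 ppm became 5767 and the 14414 slopes 8890. Between 20 and 10 ppm the 157 became 279 among brighter probe sets, 619 with weights, 0 with the compared groups alone and 0 to 521 with mice left out. Between 40 and 20 ppm the 168 became 61 after quantile normalization, 22 among brighter probe sets, 1017 with weights, 10 with the compared groups alone and 30 to 584 with mice left out. Between 120 and 40 ppm the 11 became 7 with centred arrays, 17 with weights and 2 to 13 with mice left out. The 9177 of the F test became 4867 to 6534 without 1 replicate of every group. Leaving out single mice at 1, 5 and 10 ppm and between neighbouring doses was chosen after seeing the data. The cause of these changes was not tested.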
